A study of Mus musculus with 11 samples.

Results

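The lncRNAlocus catalogue is a set of numbered mouse long noncoding RNA (lncRNA) loci, each named by its number and its genomic interval. Members were taken as the rows with the known-lincRNA prefix whose name contains lncRNAlocus, without use of any measured value. This gave 427 loci among 48942 features in the Dcr expression table, and 380 loci, all of them also in the Dcr table, among 39889 features in the cMyc table. Names run from lncRNAlocus8 to lncRNAlocus1717, and the intervals lie on 20 chromosomes. Positions are given as the row names state them; the names carry no build, and mm9 is the build in the submitters' processing notes. Each locus is known here by number and position only, and no gene name or function is assigned to it.

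The libraries are directional, poly(A)-selected RNA-seq of mouse embryonic stem cells, strain 129S4/SvJae, cultured on gelatin with no feeder cells. Dcr KO comprises 3 lines, numbered 1, 3 and 4, that lack Dicer, and Dcr WT comprises 2 wild-type libraries. One library is from cMyc KO cells (cMyc-/-) and one from cMyc flox cells (cMyc f/f), which still carry both floxed alleles. The cMyc libraries are single-end and from another line than the Dcr libraries. Between the Dcr and cMyc comparisons, line and read layout therefore cannot be told apart from genotype. The labels do not say whether each line is 1 clone, how the alleles were recombined, or whether both wild-type libraries are from separate cultures, so p-values measure the spread between these libraries, which may be technical.

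Dicer cuts microRNA precursors into mature microRNAs, which guide Argonaute proteins to mRNAs and lower their stability and translation. Myc is a transcription factor that pairs with Max at promoters and raises transcription of many genes. Long noncoding RNAs are transcripts without an open reading frame of known function, many of them made by RNA polymerase II, capped and polyadenylated, and usually less abundant than mRNAs. The title of the series links Dicer, microRNAs and Myc to the transcription of lncRNAs, which sets the question asked of these loci.

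Depth was 247574902, 278006158 and 251808298 reads in Dcr KO lines 1, 3 and 4 and 101815723 and 206721717 in Dcr WT libraries 1 and 2. The cMyc KO library held 31633011 reads and the cMyc flox library 24660365, of which ribosomal RNA took 30% and 28.1%. All values below are normalised read counts as deposited, in which 1 read is worth 0.76 to 0.91 in 4 of the Dcr libraries and 2.01 in Dcr WT library 1. Myc, which the cMyc labels name, stood at 10.9 in cMyc KO and 470.04 in cMyc flox. In the Dcr libraries, whose labels do not name it, Myc was also lower, at 1253, 1054 and 443 in Dcr KO against 10984 and 7478 in Dcr WT. Dicer1 stood at 8553, 9793 and 7743 in Dcr KO and 20132 and 18792 in Dcr WT (limma log2 fold change −1.17, adjusted p = 0.000556), and the sources used here do not say which part of the gene was deleted. Pou5f1, which marks pluripotent cells, was high in every library, from 216556 to 284597 in Dcr KO and from 214178 to 220556 in Dcr WT, and 0 of 5 pluripotency markers passed the test in either direction. Fibroblast markers moved with genotype, with 6 of 7 lower and 1 higher in Dcr KO, and their summed count was 2111 to 6004 in Dcr KO against 29353 to 41694 in Dcr WT. None of these 7 markers was at 0 in any library. Other lineage lists were mixed. Of 3 mesoderm markers, Kdr was higher (log2 fold change 4.50) and T (−5.26) and Mesp1 (−1.42) lower, with a summed count of 4816 to 9328 in Dcr KO, nearly all of it Kdr, and 417 to 825 in Dcr WT. Of 3 trophoblast markers, Elf5 and Gata3 were higher and Cdx2 lower, with sums of 1653 to 2335 in Dcr KO and 465 to 587 in Dcr WT. Of 4 neural markers, Pax6 and Ncam1 were higher and Nes lower, with sums of 31450 to 41368 in Dcr KO and 13271 to 20333 in Dcr WT. Of 5 primitive endoderm markers, Gata6 and Amn were lower and 0 higher, with sums of 2692 to 3485 in Dcr KO and 3738 to 5665 in Dcr WT. The part of these cell types in the results below was not tested. In bulk RNA, fewer cells of a type and less RNA per cell cannot be told apart.

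The loci had low read counts. The median locus had a mean of 28.5 normalised reads over the 5 Dcr libraries, the quartiles were 8.64 and 108, and only 2 loci exceeded 1000. Coding rows had a median of 1210, but coding rows and loci differ in length, so these are read counts and not abundances. The interval of a locus spanned 906 bp at the median, from 106 to 60560 bp. Together the loci took 0.0212%, 0.0225% and 0.0264% of reads in Dcr KO lines 1, 3 and 4, against 0.0282% and 0.0314% in Dcr WT libraries 1 and 2. The summed normalised count was 46603, 47686 and 50944 in Dcr KO and 57795 and 59254 in Dcr WT. Without the 8 highest loci the sums were 30566, 32156 and 30190.5 in Dcr KO and 42989 and 43345 in Dcr WT. With or without those 8 loci, the 3 Dcr KO sums lay below both Dcr WT sums. The median locus stood at 19.5, 22.9 and 21.4 in Dcr KO and 38.2 and 40.2 in Dcr WT.

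The highest locus by read count was lncRNAlocus46 (chr12:87765860-87810998). It had 7859, 7733 and 13278 normalised reads in Dcr KO and 5190.3 and 5988 in Dcr WT, so that all 3 knockout lines lay above both wild-type libraries and line 4 well above lines 1 and 3. Its log2 fold change was 0.74 ± 0.23 (SE; limma adjusted p = 0.0372), a call lost without any 1 Dcr KO line or without Dcr WT library 1 (adjusted p from 0.0529 to 0.0743). Next came lncRNAlocus163 (chr4:133513040-133532893), with 3099, 3439 and 3471 in Dcr KO and 4078 and 4115 in Dcr WT. Its knockout values were all lower, yet the fold change did not pass (−0.30, 95% interval −0.62 to 0.03, limma adjusted p = 0.146). Of the other 6 loci of highest mean count, lncRNAlocus1016 (chr15:53005417-53012018) fell, at 466, 318 and 432 in Dcr KO against 982 and 1816 in Dcr WT (log2 fold change −1.74 ± 0.29 SE, limma adjusted p = 0.00208). The remaining 5 did not pass the test; their log2 fold changes were −0.52 for lncRNAlocus630, −0.37 for lncRNAlocus952, −0.21 for lncRNAlocus1204, 0.30 for lncRNAlocus1588 (−0.02 without Dcr WT library 2) and 0.42 for lncRNAlocus1311. Per kilobase of interval the order differed. The highest was then lncRNAlocus819 (chr7:99785717-99786036), a 320-bp interval with 1791 normalised reads per kb, against a median of 31.3 per kb, and it stood at 492, 562 and 494 in Dcr KO and 660 and 657 in Dcr WT (log2 fold change −0.35, 95% interval −0.78 to 0.08).

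When Dcr KO was compared with Dcr WT, the loci fell far more often than they rose. Of the 427 loci, 406 reached 1 normalised read in 2 or more libraries and were tested; 81 were lower and 11 higher (limma on log2(value + 1), adjusted p under 0.05 over all features). That is 20% and 2.71% of the loci, against 14.8% lower and 16.9% higher over all 42358 features tested. Both counts include loci that passed the filter only through the group in which they were high. Of the 81 lower loci, 21 had a mean under 50. The median log2 fold change was −0.73 over the tested loci and 0.08 over all tested features, and −0.70 over all 427 loci when no filter was applied. The quartiles of the tested loci were −1.31 and −0.01. Knockout values lay below both wild-type values in 201 tested loci, 49.5% against 27.4% of all features, and above both in 33, 8.13% against 30% of all features. The 21 untested loci were near 0 everywhere, 5 of them at 0 in all 5 libraries.

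**Figure D1:**
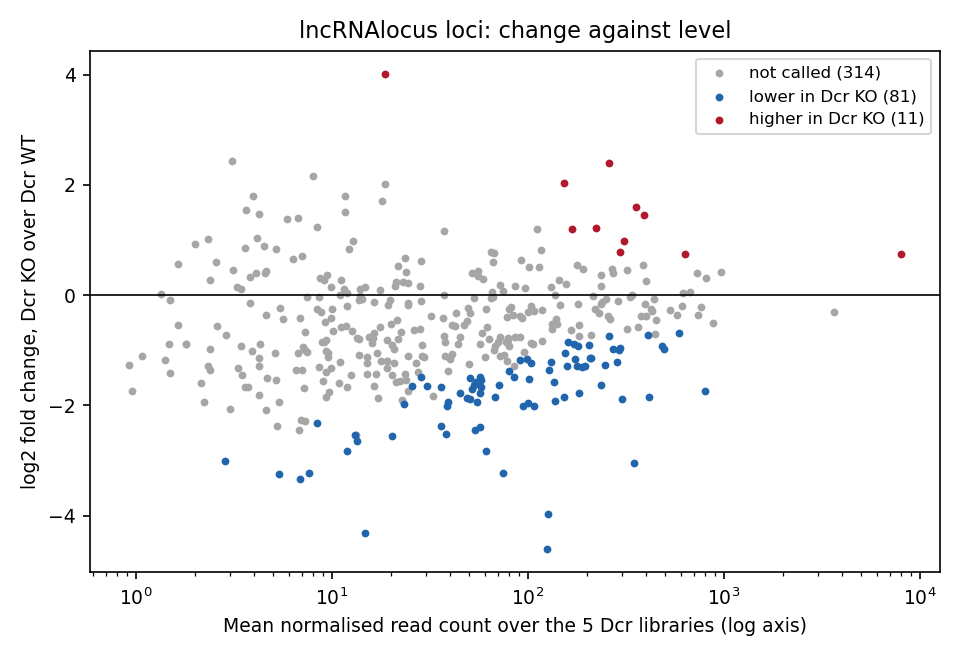
Each point is 1 tested lncRNAlocus locus; the horizontal axis is its mean normalised read count over the 5 Dcr libraries on a log axis and the vertical axis its log2 fold change, Dcr KO over Dcr WT. Blue points mark the 81 loci lower and red points the 11 loci higher in Dcr KO; most points at every level under 1000 lie below 0.

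Among the 81 loci that fell, the change was at least 2-fold in 69 and at least 4-fold in 22, with a median log2 fold change of −1.65. In all 81 the groups did not overlap, but with 3 and 2 libraries a call nearly entails this, so it adds no support. The number of lower loci was 50 without Dcr KO line 1, 48 without line 3 and 51 without line 4, and the number of higher loci was 4, 4 and 6; without Dcr WT library 2 it was 17. In total, 34 of the 81 lower and 4 of the 11 higher loci kept their call without each library in turn. On reads recovered from the deposited values, edgeR called 83 loci lower and 11 higher, and DESeq2 89 and 12. Shares over all features in the edgeR and DESeq2 fits are not given here.

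The largest fall among loci with a mean of at least 50 was that of lncRNAlocus1033 (chr7:29869742-29876304), which had 21.3, 18.3 and 3.06 normalised reads in Dcr KO and 276 and 308 in Dcr WT. Both wild-type libraries were high and close together, and line 4 was the lowest knockout line. The log2 fold change (−4.60 ± 0.70 SE, limma adjusted p = 0.00132) was −3.81 without line 4. At lncRNAlocus1352 (chr10:94820612-94825944) the values were 22.2, 11.5 and 19.9 in Dcr KO and 241 and 334 in Dcr WT (log2 fold change −3.97 ± 0.43 SE, limma adjusted p = 0.000229). For lncRNAlocus395 (chr17:46573757-46577434) they were 112, 58.8 and 102 in Dcr KO and 710.1 and 745 in Dcr WT, and the log2 fold change was −3.04 ± 0.32 (SE; limma adjusted p = 0.000196). This locus had the highest wild-type level of the 8 with the largest falls, and its knockout values were above those of the other seven.

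The other 5 of these 8 loci had wild-type values between 88.5 and 215. At lncRNAlocus498 (chr1:36067836-36068740) Dcr KO had 16.0, 22.9 and 11.5 and Dcr WT 133 and 189.9 (log2 fold change −3.22 ± 0.46 SE). At lncRNAlocus195 (chr6:28880358-28882066) Dcr KO had 15.1, 19.9 and 16.1 and Dcr WT 105 and 151 (−2.82 ± 0.43 SE). At lncRNAlocus1496 (chr7:52608699-52609033) Dcr KO had 19.5, 14.5 and 21.4 and Dcr WT 121 and 90.4 (−2.45 ± 0.43 SE). The choice of these loci required groups without overlap and ranked them by the size of the fall, so the wide margins add no support. At lncRNAlocus546 (chr19:31188604-31203550) line 4 stood apart, with 14.2, 14.5 and 36.7 in Dcr KO and 88.5 and 129.6 in Dcr WT (−2.38 ± 0.52 SE). At lncRNAlocus880 (chr11:76435822-76436881) Dcr KO had 50.6, 31.3 and 43.6 and Dcr WT 131 and 215 (−2.01 ± 0.39 SE). Limma adjusted p-values of these 5 ran from 0.000958 to 0.00824, and all 8 calls held without each library in turn.

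**Figure D2:**
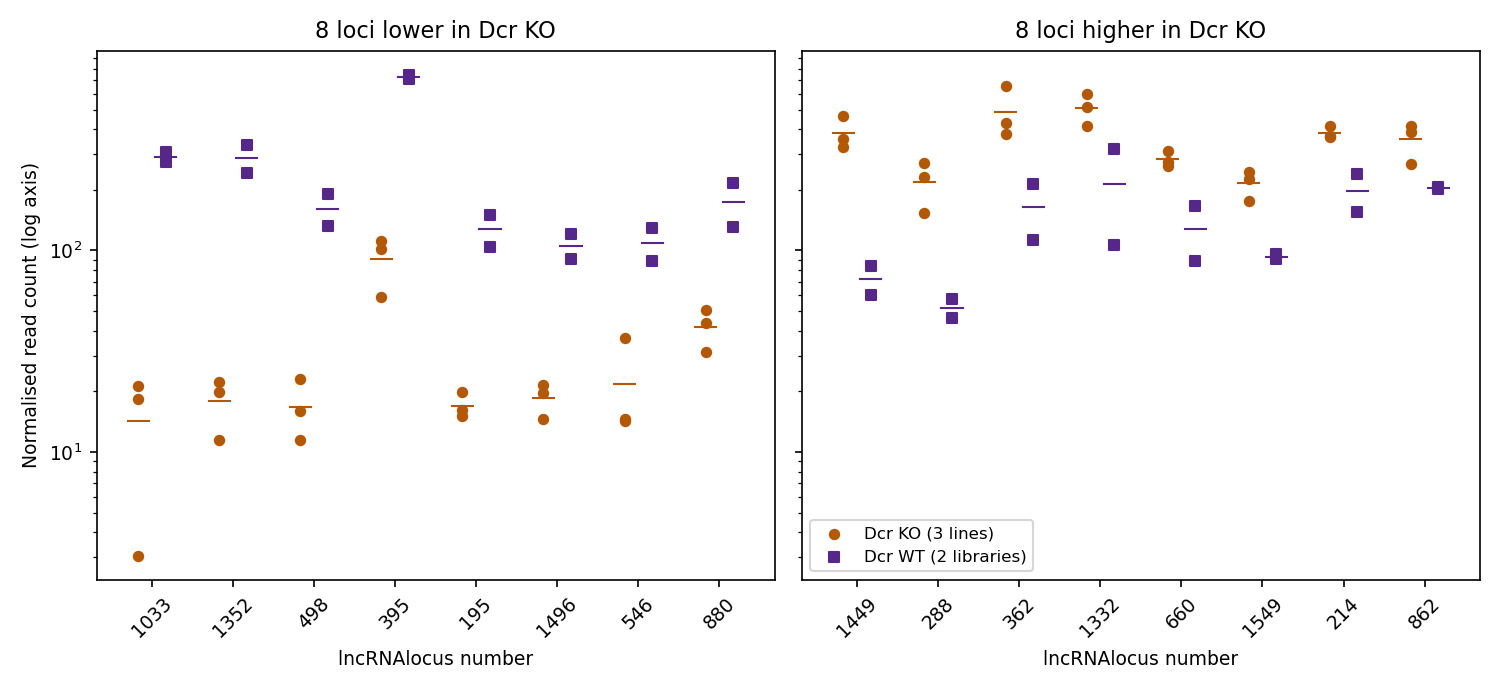
Normalised read counts on a log axis for the 8 called loci with the largest falls (left) and the 8 with the largest rises (right) in Dcr KO, among loci with a mean of at least 50 and no overlap between groups. Circles are the 3 Dcr KO lines, squares the 2 Dcr WT libraries and short lines the group means; lncRNAlocus1033 spans 3.06 to 21.3 in Dcr KO against 276 to 308 in Dcr WT.

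Other falling loci, named after their values were seen, show the range below and above that level. The lowest of them were close to the floor. At lncRNAlocus1089 (chr10:77500163-77500946) 2 of the 3 knockout lines were at 0 and line 3 at 4.58, against 32.2 and 36.5 in Dcr WT (log2 fold change −4.31). At lncRNAlocus1129 (chr12:85378371-85378899) all 3 knockout lines were at 0 and Dcr WT had 6.04 and 8.22, so no fold is given. Its call was lost without any 1 library. Both loci passed the filter only with the Dcr WT libraries in which they were high, so their calls are not given as support. The widest interval in the catalogue, the 60560 bp of lncRNAlocus69 (chr7:39056435-39116994), differed little within groups, at 131, 126 and 129 in Dcr KO and 382 and 416 in Dcr WT (log2 fold change −1.63 ± 0.24 SE, limma adjusted p = 0.00124).

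Of the 11 loci that rose, 7 did so at least 2-fold. At lncRNAlocus1449 (chr15:37890207-37894732) the values were 325, 467 and 357 in Dcr KO and 60.4 and 84.0 in Dcr WT (log2 fold change 2.39 ± 0.29 SE, limma adjusted p = 0.000398). At lncRNAlocus288 (chr10:44162537-44166429) they were 232, 153 and 273 in Dcr KO and 46.3 and 57.5 in Dcr WT (2.03 ± 0.34 SE, limma adjusted p = 0.00224). At lncRNAlocus362 (chr3:135177530-135186131) they were 429, 377 and 652 in Dcr KO and 113 and 215 in Dcr WT (1.60 ± 0.34 SE, limma adjusted p = 0.00691). These 3 kept their call without each Dcr KO line in turn.

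The next 5 rises each lost their call without at least 2 of the libraries. At lncRNAlocus1332 (chr10:94683974-94692125) Dcr KO had 597, 517 and 417 and Dcr WT 107 and 319; its log2 fold change (1.45 ± 0.41 SE, limma adjusted p = 0.0239) was 0.66 when Dcr WT library 1 was left out and 2.23 when library 2 was. The wild-type libraries differed by more at this locus than at the other 7. At lncRNAlocus660 (chr3:90194357-90194808) Dcr KO had 275, 261 and 313 and Dcr WT 167 and 88.5 (1.21 ± 0.31 SE), and at lncRNAlocus1549 (chr7:51614271-51614759) Dcr KO had 225, 246 and 177 and Dcr WT 90.5 and 95.9 (1.19 ± 0.28 SE). At lncRNAlocus214 (chr17:69624494-69626546) Dcr KO had 371, 413 and 365 and Dcr WT 155 and 240.1 (0.98 ± 0.26 SE), and at lncRNAlocus862 (chr8:28339157-28341570) Dcr KO had 417, 386 and 268 and Dcr WT 201 and 206 (0.78 ± 0.26 SE). Limma adjusted p-values of these 4 ran from 0.0114 to 0.0476. Groups without overlap were a condition of the choice of all these rises. One further locus, named after its value was seen, was nearly silent in wild-type cells. This was lncRNAlocus1151 (chr2:172111031-172117110), at 10.6, 44.3 and 35.97 in Dcr KO and 0 and 1.83 in Dcr WT (log2 fold change 4.0). It passed the filter only with the Dcr KO lines in which it was high, so its call is not given as support.

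Coding rows of equal read count were called lower about as often as the loci but were called higher more often. Read count sets how easily a row reaches the threshold, so both classes were split by their mean over the 5 Dcr libraries. Between 1 and 10, 4.9% of 102 loci were lower and 0% higher, against 5.71% and 3.46% of 1331 coding rows. Between 10 and 100, 20.2% of 188 loci were lower and 0.532% higher, against 25.2% and 11.2% of 2161 coding rows. Between 100 and 1000, 33.9% of 112 loci were lower and 8.04% higher, against 36% and 18.9% of 2906 coding rows. In all 3 ranges the share of loci called lower was within a few points below the coding share. The share called higher was less than that of coding rows in each. Direction alone, called or not, differed more. In the same order, 69.6%, 80.3% and 72.3% of loci had a log2 fold change below 0, against 61.9%, 63.1% and 61% of coding rows.

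With coding shares weighted to the levels of the loci, 20% of loci were lower against 23.2% of coding rows, a difference of −3.18 percentage points, and 2.72% were higher against 11.5%, a difference of −8.75 points. Without Dcr WT library 2 the difference in the lower share was −0.911 points, and without each library in turn it ran from −4.69 to −0.911. The median log2 fold change was −0.88 for loci and −0.54 for coding rows between 1 and 10, −0.80 and −0.53 between 10 and 100, and −0.39 and −0.35 between 100 and 1000. At 1000 and above it was 0.22 for the 2 loci and 0.04 for coding rows. Coding rows under 1000 thus had medians below 0 too. These are counts and medians without a test. In 2 other lincRNA catalogues of the table the lower and higher shares were closer together, with 18.5% lower and 9.47% higher among 243 tested loci of the Guttman catalogue and 25.7% and 27.4% among 179 of the Bartel catalogue. Unannotated loci of the table, 18313 of them tested, were 7.41% lower and 15.4% higher. The shares of these 3 classes were not matched for read count. Over all rows, the median count was 0.335 in the Guttman catalogue, 71.4 in the Bartel catalogue and 17.6 in unannotated loci. It was 28.5 in the lncRNAlocus loci.

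**Figure D3:**
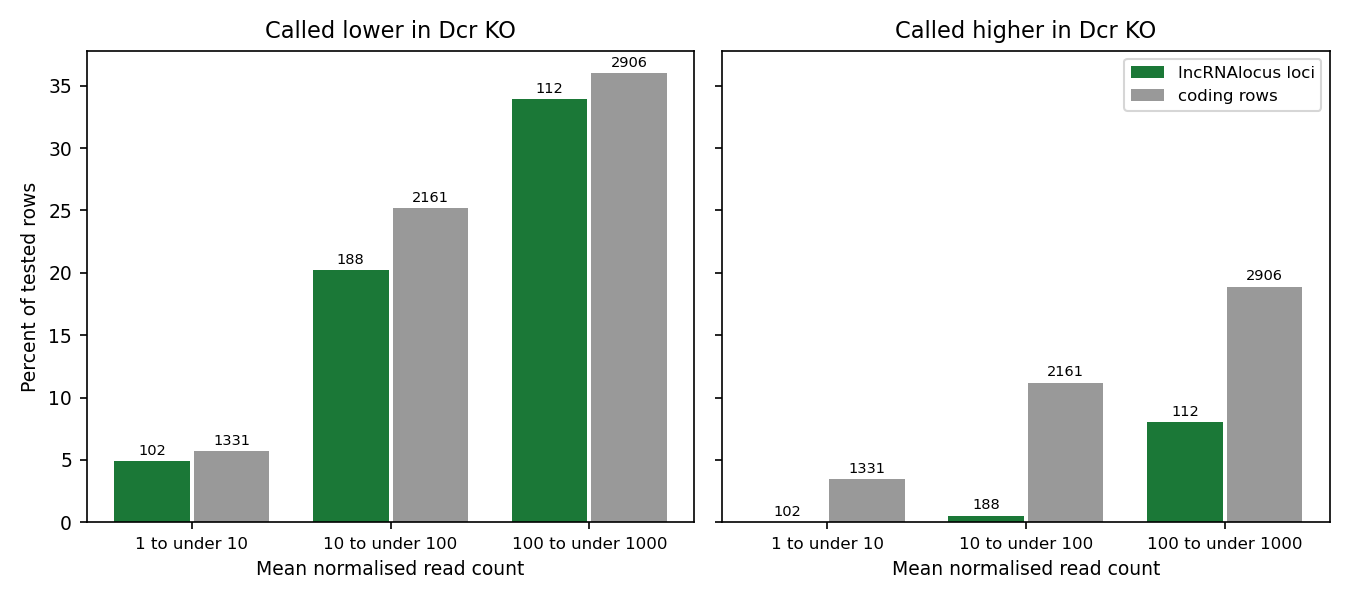
Percent of tested rows called lower (left) and higher (right) in Dcr KO, by range of the mean normalised read count, for lncRNAlocus loci (green) and coding rows (grey); the number above each bar is the number of rows tested. The lower shares of the loci lie just under those of coding rows (33.9% and 36% in the top range), and the higher shares lie further under them (8.04% and 18.9%).

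Position and extent of the loci were set beside their change. Loci with an interval under 500 bp were lower in 4.81% of 104 cases, those of 500 to 1000 bp in 19.6% of 102, those of 1000 to 2000 bp in 22.7% of 97 and those of 2000 bp and above in 33% of 103. The median read count was 7.25, 23.5, 67.8 and 152 in the same order, so interval and read count moved together, and the median log2 fold change was −0.74, −0.77, −0.76 and −0.55. Lower loci were found on all 20 chromosomes that carry a member. On chromosome 11, which carries most tested loci, 10 of 38 were lower (26.3%) and 0 higher. The highest share was on chromosome 7, where 11 of 32 were lower (34.4%) and 1 higher. Chromosome 3 had the lowest share, with 1 of 19 lower (5.26%) and 2 higher. The share over all tested loci was 20%. Numbers per chromosome are small, shares over all features by chromosome are not given, and a positional pattern was not tested.

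Neighbouring loci did not always move together. Of 22 adjacent pairs less than 50000 bp apart with both loci tested, 15 had both log2 fold changes below 0, 2 had both above 0 and 5 had opposite signs. Over all tested loci 75.4% were below 0, so many pairs would both be below 0 without any link between neighbours. Such pairs may share a transcript, which was not tested. On chromosome 7, lncRNAlocus972 (chr7:28123084-28126169) and lncRNAlocus57 (chr7:28139368-28141252) both fell. The first had 65.7, 104 and 56.6 in Dcr KO and 284 and 250.1 in Dcr WT (log2 fold change −1.86 ± 0.34 SE), and the second 38.2, 23.7 and 23.0 in Dcr KO and 72.4 and 129 in Dcr WT (−1.78 ± 0.45 SE). Their neighbour lncRNAlocus1199 (chr7:28094304-28095806) stood at 306, 315 and 273 in Dcr KO and 191 and 264 in Dcr WT, all knockout values being higher, and did not pass (0.40, 95% interval −0.15 to 0.96). The second pair in which both fell was lncRNAlocus1011 and lncRNAlocus85 on chromosome 2, with log2 fold changes of −1.66 and −0.88. A gap of only 104 bp separates lncRNAlocus165 from lncRNAlocus1344 (chr9:57348964-57351697) on chromosome 9. There lncRNAlocus1344 rose, at 719, 675 and 856 in Dcr KO and 459 and 434 in Dcr WT (0.74 ± 0.20 SE, limma adjusted p = 0.0201), a call lost without any 1 Dcr KO line, while lncRNAlocus165 had 156, 131 and 169 in Dcr KO and 165 and 95.9 in Dcr WT. The neighbours named here were chosen after their values were seen.

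The 3 Dcr KO lines differed among themselves at some loci. Among 181 loci with a mean of at least 50, the log2 range across the lines had a median of 0.50, and that across the 2 Dcr WT libraries 0.41. A range over 3 values tends to be wider than a range over 2, so these medians do not show a larger spread in Dcr KO. The range across the lines exceeded 1 in 16 loci, with the lowest line being line 4 in 8, line 1 in 6 and line 3 in 2. The widest was that of lncRNAlocus947 (chr12:110030495-110031463), at 11.5, 101 and 127 in Dcr KO and 103 and 49.3 in Dcr WT. Line 1 was also lowest at lncRNAlocus1305 (chr1:154749938-154750197), with 28.4, 124 and 109 in Dcr KO and 103 and 88.5 in Dcr WT, and at lncRNAlocus1217 (chr11:102178184-102178951), with 33.7, 137 and 118 in Dcr KO and 189 and 114 in Dcr WT. At all 3 loci line 1 lay below both wild-type libraries and lines 3 and 4 lay among or above them, and the comparison of the groups did not pass (limma adjusted p from 0.284 to 0.755). The second widest range was that of lncRNAlocus1033, described above, where the low line was line 4.

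The cMyc pair asked whether the loci changed when Myc itself was deleted, with 1 library in each group and so no replicate check or test. Of the 380 loci in that table, 45 had no read in either library, the median locus had 6 reads over both, and 82 reached the 20 reads needed for a ratio. Among these 82, 10 were at least 2-fold lower and 2 at least 2-fold higher in cMyc KO, or 12.2% and 2.44%, against 2.06% and 1.43% of all 17631 features with 20 reads. Of the 56 loci with 20 to 49 reads, 12.5% were past 2-fold lower and 3.57% higher, against 4.09% and 9.66% of coding rows in that range. The median log2 ratio was −0.30 over the 82 loci and 0.11 over coding rows. It was also −0.30 over 51 loci of the Guttman catalogue and −0.28 over 72 of the Bartel catalogue. Of these, 5.88% and 8.33% were past 2-fold lower, so the shift was not particular to the lncRNAlocus loci. By reads, the median of the loci was −0.35 at 20 to 49, −0.04 at 50 to 99 (20 loci) and −0.34 at 100 and above (6 loci). Coding rows had medians of 0.13, 0.08 and 0.11 in these ranges. Scaling by coding rows alone shifted the median of all features from 0.07 to −0.04, with medians of −0.40 for the loci and 0 for coding rows, so that the gap between the classes was alike, and gave 16 lower and 1 higher loci.

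Among loci with at least 50 reads the lowest ratio was that of lncRNAlocus952 (chr3:52912810-52917413), with 19.0 in cMyc KO and 52.7 in cMyc flox, a log2 ratio of −1.42 (linear ratio 0.361, 95% exact conditional interval 0.206 to 0.612, which covers counting error only). It was followed by lncRNAlocus1052 (ratio 0.401, interval 0.227 to 0.688), lncRNAlocus1436 (0.449, interval 0.291 to 0.681), lncRNAlocus819 (0.522, interval 0.337 to 0.797) and lncRNAlocus920 (0.565, interval 0.319 to 0.984). At the opposite end, lncRNAlocus1204 (chr14:21460230-21462270) had 46.2 in cMyc KO and 26.4 in cMyc flox (1.75, interval 1.07 to 2.95). For lncRNAlocus465, lncRNAlocus1266, lncRNAlocus1038 and lncRNAlocus1311 the ratios ran from 1.26 to 1.62 and each interval included 1. Of the 10 loci past 2-fold lower at 20 reads, 9 had an interval below 1, and of the 2 past 2-fold higher, lncRNAlocus499 (25 and 10 reads in cMyc KO and cMyc flox) and lncRNAlocus155 (18 and 6 reads), 0 had an interval above 1. All loci named here were picked by their ratio, and the intervals come from the same reads. An interval that leaves out 1 therefore adds no support, and shares over all features are not given. The lowest of the 10, named after its value was seen, was lncRNAlocus1637 (chr11:116975291-116976292), with 3 reads in cMyc KO and 18 in cMyc flox (ratio 0.143, interval 0.0270 to 0.491). Of the 7 fibroblast markers, Thy1 had a log2 ratio below 0 in the cMyc pair (−0.27) and the other 6 were above 0, from 0.09 for Tagln to 1.41 for Dcn. Thy1 was thus lower and Dcn higher in both comparisons, while the other 5 were lower in Dcr KO and had cMyc ratios above 0. Their part in the cMyc values was not tested.

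The 2 comparisons share no library, and 3 loci were lower in both. Of the 82 loci assessed in both, 33 were lower in Dcr KO and 10 past 2-fold lower in cMyc KO, and 3 were in both lists. These are 9.09% of the first list, against 12.2% of all 82 loci past 2-fold lower in cMyc KO, and 30% of the second, against 40.2% of all 82 lower in Dcr KO. With scaling by coding rows alone 6 loci were in both lists, and 0 loci were higher in both. Of the loci lower in Dcr KO, 69.7% had a cMyc log2 ratio below 0 (23 of 33), against 67.4% of those not called (29 of 43) and 66.7% of those higher (4 of 6). Across the 82 loci, which share their libraries within each axis, Pearson's r between the log2 changes was 0.04 and Spearman's rho 0.05, given as a description.

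**Figure D4:**
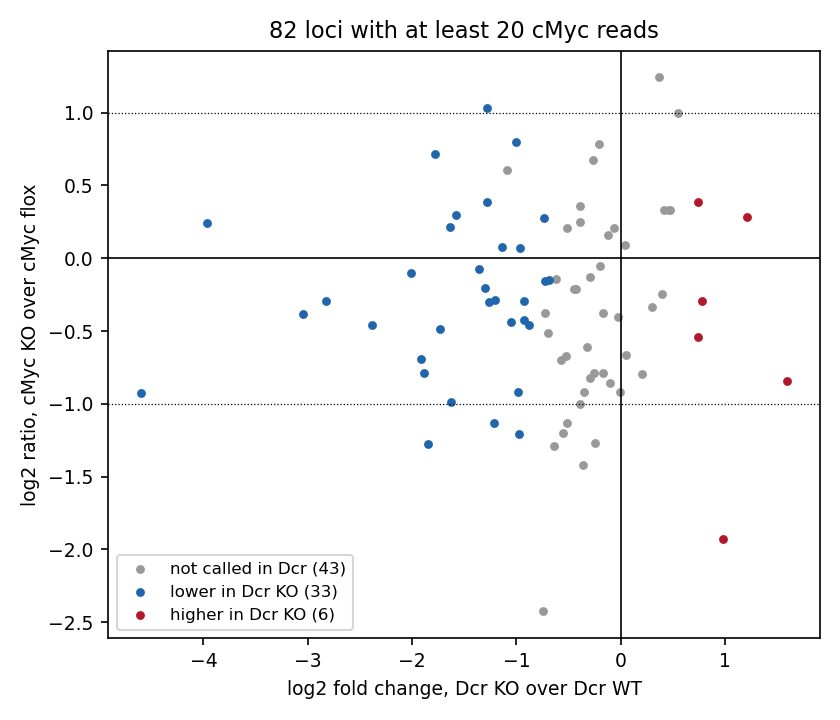
Each point is 1 of the 82 loci with at least 20 cMyc reads; the horizontal axis is the log2 fold change, Dcr KO over Dcr WT, and the vertical axis the log2 ratio, cMyc KO over cMyc flox, with dotted lines at 2-fold. Colour gives the Dcr call (33 lower, 6 higher, 43 not called); 3 blue points lie below the lower dotted line, and the points show no common slope (Pearson's r 0.04).

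The 3 loci in both lists were well measured in the Dcr libraries. At lncRNAlocus1052 (chr2:174147081-174152899) Dcr KO had 183, 212 and 197 and Dcr WT 913 and 556 (log2 fold change −1.85 ± 0.26 SE, limma adjusted p = 0.000979), and the cMyc pair 19.0 in cMyc KO and 47.4 in cMyc flox. At lncRNAlocus1436 (chr6:148779973-148781634) Dcr KO had 176, 195 and 183 and Dcr WT 370.2 and 500.3 (−1.22 ± 0.24 SE, limma adjusted p = 0.00544), and the cMyc pair 32.6 in cMyc KO and 72.7 in cMyc flox. The knockout lines were tightly grouped at both. At lncRNAlocus1286 (chr1:120283857-120285417) Dcr KO had 356, 431 and 286 and Dcr WT 797 and 604 (−0.97 ± 0.25 SE, limma adjusted p = 0.0153), a call lost without Dcr KO line 1 or line 4, and the cMyc pair 12.7 in cMyc KO and 30.6 in cMyc flox.

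Of the 8 loci with the largest falls in Dcr KO, 6 had at least 20 cMyc reads and 0 of these were past 2-fold lower in cMyc KO. With 36.2 in cMyc KO and 30.6 in cMyc flox, lncRNAlocus1352 had a ratio of 1.19 (interval 0.717 to 1.98). The ratio of lncRNAlocus395 was 0.759 (interval 0.448 to 1.28), and that of lncRNAlocus1033 was 0.509 (interval 0.256 to 0.980). For lncRNAlocus195, lncRNAlocus880 and lncRNAlocus546 the ratios were 0.806, 0.926 and 0.704, on 31, 27 and 20 reads over both libraries. At lncRNAlocus498 and lncRNAlocus1496 the cMyc libraries held 3 and 4 reads over both. Opposite directions also occurred: lncRNAlocus214, higher in Dcr KO, was past 2-fold lower in cMyc KO (5 reads against 19 in cMyc flox), and lncRNAlocus499, lower in Dcr KO, was past 2-fold higher in cMyc KO. Of 13 genes of the microRNA machinery and the Myc network measured beside the loci, 3 rose and 4 fell in Dcr KO. Those that rose were Ago1 (log2 fold change 1.70), which encodes an Argonaute protein, the Myc antagonist gene Mxd1 (0.95) and Dgcr8 (0.77), a partner of Drosha. Those that fell were Myc (−3.44), Mycl (−1.27), Dicer1 and Tarbp2 (−0.74), a partner of Dicer; Mycn, at 84299 to 99802 in Dcr KO and 79275 to 93214 in Dcr WT, did not pass (limma adjusted p = 0.540).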

How the data were processed

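The authors deposited 1 table per experiment with normalised read counts, a signal per feature equal to a read count divided by 1 factor per library, as the deposited values themselves show (whole reads in 100% of values of each column, within 0.01 read in the Dcr table and within the rounding in the cMyc table). The submitters' processing notes name TopHat, Bowtie, DESeq and mm9 without their roles. No source used here gives the counting tool, its use of strand or the gene models, so loci that overlap or lie antisense to other genes are uncertain. The 4 chromatin libraries are not analysed here. Of the value columns, 0 lacked a sample.

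The Dcr KO against Dcr WT test was limma 3.58.1 (R 4.3.3, trend) on log2(value + 1), a scale that understates changes near 0, for features of at least 1 in at least 2 libraries. Benjamini-Hochberg adjustment ran over all features tested, and edgeR 4.0.16 and DESeq2 1.42.0 ran on recovered reads as alternatives. The limma step was also run on simulated reads with the same dispersion for every feature. That run does not measure its error rate in these data, and its results are not given. The cMyc ratio is log2((KO + 1)/(flox + 1)), with exact conditional 95% intervals. RefSeq rows were named from GRCm38.p6 annotation (20180 of 20559 matched). Named loci were the 8 of highest mean, the 8 largest called changes each way without overlap and with a mean of at least 50, the 5 highest and 5 lowest cMyc ratios at 50 reads, those changed the same way in both comparisons, and the 4 of widest range among knockout lines. Members and lists were chosen with earlier results of these data known.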

Additional observations from a re-analysis of the deposited data

How the results depend on the processing

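No paired analysis was possible because the Dcr groups share only 1 replicate number and the cMyc groups hold 1 library each. The number of lower loci in Dcr KO was 51 with no filter and 48 to 76 when each library was left out in turn; the number of higher loci was 5 with no filter, 4 in limma without trend and 4 to 17 when each library was left out. The gap to coding rows of equal level for higher loci was −5.27 points with no filter, −10.7 with a mean of at least 10, and −10.0 to −5.24 without each library. With level ranges of 0.2 log10 units, chosen after seeing the data, the gaps were −3.85 (lower) and −8.46 (higher). In the cMyc pair the lower and higher loci numbered 6 and 0 with a pseudocount of 5, 28 and 8 at 1.5-fold, 3 and 0 at 50 reads, 77 and 31 with no minimum, and 16 and 1 with total count or coding scaling. As shares these were 7.32% and 0%, 34.1% and 9.76%, 11.5% and 0%, 20.3% and 8.16%, and 19.5% and 1.22%. Coding shares were 0.353% and 0.808%, 4.72% and 6.48%, 0.311% and 0.726%, and 4% and 4.19% in the first 4 settings. They were 1.34% and 0.904% with total count scaling and 1.1% and 1.01% with coding scaling. Loci lower in both comparisons numbered 8 at 1.5-fold and 6 with coding scaling. For lower loci the gap was −4.69 to −0.911 points without each library. For the named loci, 509 of the alternative fits kept direction and side of the threshold, 43 lost the call, 1 gained it and 7 changed sign, all 7 at loci not called either way. Without each library in turn lncRNAlocus947 (−0.40) ran from −1.01 to 0.66 (positive without Dcr KO line 1, 0.66, or Dcr WT library 1, 0.12), and it was 0.12 in edgeR and 0.08 in DESeq2. In the same way lncRNAlocus1305 (−0.38) ran from −0.76 to 0.29, lncRNAlocus1588 (0.30) from −0.02 to 0.63 and lncRNAlocus920 (0.20) from −0.14 to 0.54. The cause of these shifts was not tested. Depth limits the cMyc pair, where 298 of 380 loci had under 20 reads. With 1 wild-type library left out, the lone one is assumed to vary like the knockout lines.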
